A study of Mus musculus with 8 samples.

Results

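Genes of the p53 and cell death pathway were followed in testes of mice that lacked the *Tra2b* poison exon in germ cells. *Tra2b* encodes the splicing regulator Tra2β, and inclusion of its poison exon yields transcripts that do not make the protein. The genes followed are *Trp53* and *Trp63* of the p53 family, *Cdkn1a*, *Bax*, *Bbc3* and *Pmaip1*, which p53 activates, and *Bcl2*, *Bcl2l1* and *Mcl1*, which keep cells alive. They were chosen by name, with earlier results of these data known, and make up 9 of the 40840 genes listed for each mouse. All 9 passed the filter on low counts, with at least 105 reads in every mouse.

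RNA was made from whole testes, a mixture of germ cells and somatic cells, of 4 mice called wild type and 4 *Tra2b-cPEko* mice at 12 days of age (P12). As the study defines them, wild type mice carried 1 floxed and 1 unmodified allele of the *Tra2b* poison exon (*Tra2bPE* fl/+) without Cre. *Tra2b-cPEko* mice carried 1 floxed and 1 deleted allele (fl/-) together with the *Vasa-Cre* transgene, which is active in germ cells and not in somatic cells. The mice were independent and on a C57BL/6J background. The poison exon therefore remained on the floxed allele of Sertoli, Leydig and myoid cells. Replicates are named by the letters A to D of the labels.

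The p53 protein is a transcription factor that is held at a low level by Mdm2 and is stabilised after DNA damage or other stress. It then switches on genes such as *Cdkn1a*, which stops the cell cycle, and *Bax*, *Bbc3* and *Pmaip1*, which open the way to apoptosis at the mitochondrion. Bax forms pores in the outer mitochondrial membrane, Bbc3 (PUMA) and Pmaip1 (NOXA) are BH3-only proteins that neutralise the pro-survival proteins, and Bcl2, Bcl2l1 (BCL-XL) and Mcl1 restrain Bax. p53 is stabilised largely at the level of protein, so that its activity is usually read from its target genes. In the testis, germ cells that fail in meiosis are removed by apoptosis, and Sertoli cells take up the remains.

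None of the 9 genes passed the test for a difference between the genotypes at P12. Their log2 fold changes, *Tra2b-cPEko* minus wild type, lay between -0.10 for *Bax* and 0.39 for *Trp63*, with a median of 0.01, and the values of the genotypes overlapped for all 9. With the quasi-likelihood test of edgeR and Benjamini-Hochberg adjustment over all genes, 0 of the 9 had an adjusted p under 0.05, beside 30 of the 19104 genes tested (0.157%), and 0 of the 9 had an unadjusted p under 0.05, beside 15.3% of all genes. DESeq2 and limma-voom also gave 0 of 9 by either measure. DESeq2 called 2.79% of the 18149 genes to which it gave an adjusted p. Of 31306 genes with an unadjusted p from DESeq2, a larger set that includes genes with low counts, 9.69% were under 0.05. Genes whose 4 wild type and 4 *Tra2b-cPEko* values did not overlap made up 8.54% of all genes tested, 4.36% with *Tra2b-cPEko* mice above and 4.18% with them below. Of the 9 genes, 5 were nominally higher and 4 lower, with the signs of *Trp53* and *Mcl1* turning under upper-quartile factors and that of *Bbc3* turning without a filter or with limma-voom. The median size of their log2 fold change was 0.09, the same to 2 decimals as over all genes.

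**Figure D1:**
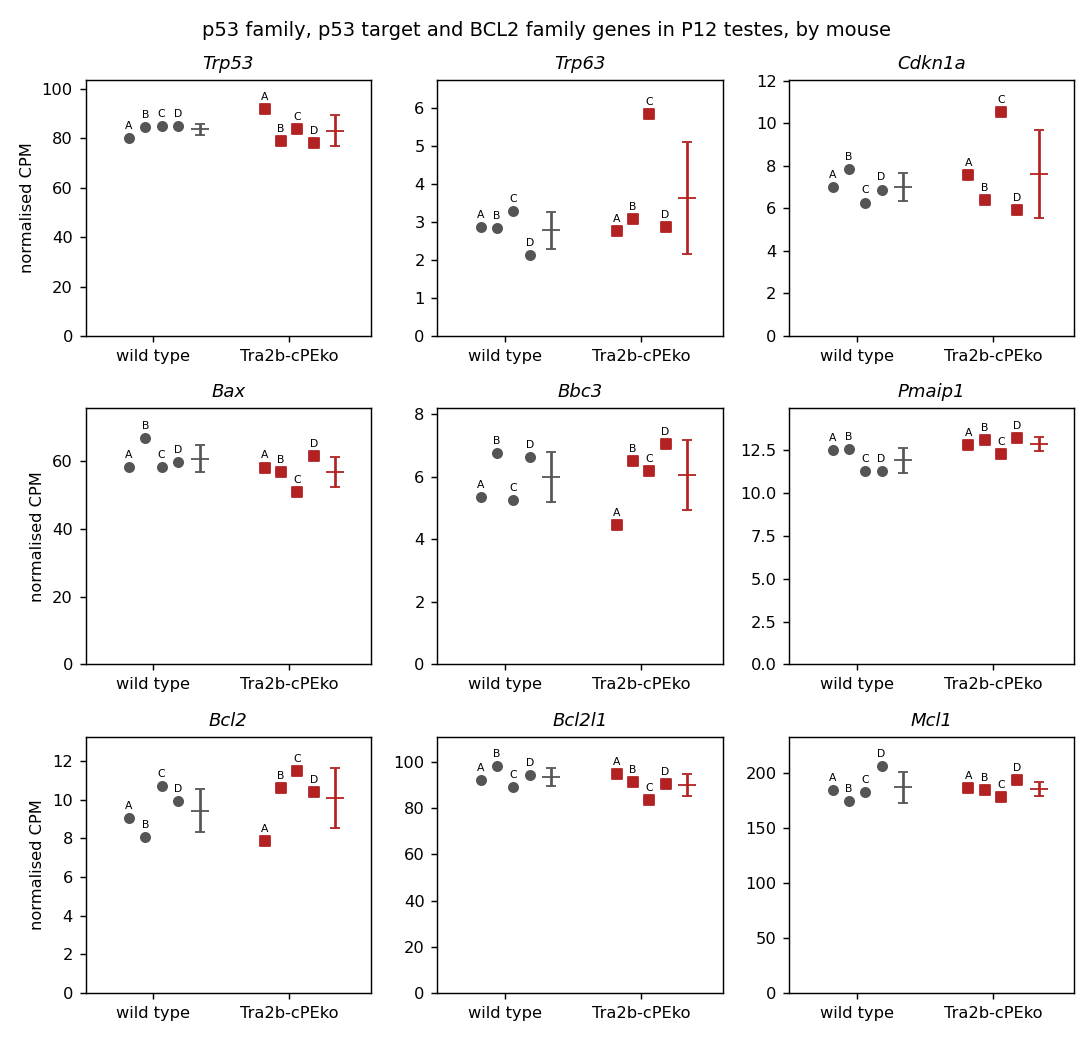
Normalised counts per 1000000 reads (CPM, vertical axes from 0) of the 9 genes in each of 4 wild type mice (grey circles) and 4 *Tra2b-cPEko* mice (red squares), with the replicate letter at each point and the mean and SD to the right. The genotypes overlap for every gene, and *Trp63* and *Cdkn1a* are highest in *Tra2b-cPEko* replicate C, at 5.84 and 10.5 CPM.

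**Figure D2:**
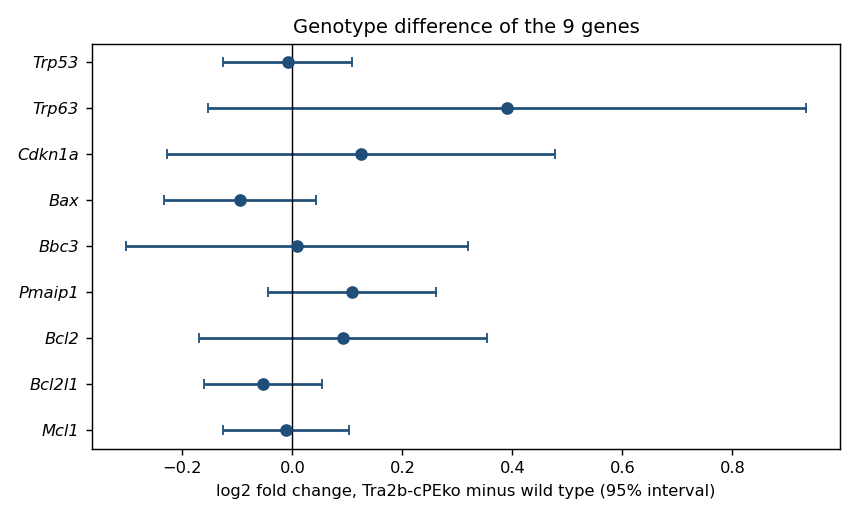
Log2 fold change (*Tra2b-cPEko* minus wild type) of the 9 genes with 95% intervals from edgeR, on a horizontal axis where 0 means no difference. Every interval spans 0, and that of *Trp63* is the widest, from -0.15 to 0.93.

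The targeted gene was checked first. *Tra2b*, counted over all its exons, had 158, 166, 156 and 176 CPM in wild type and 200, 190, 192 and 209 CPM in *Tra2b-cPEko* mice A to D, without overlap, and its adjusted p was 0.0552 by edgeR's quasi-likelihood test and 0.000195 by DESeq2. It was under 0.05 in 6 of 17 other settings. Its paralog *Tra2a* had 138, 144, 121 and 111 CPM in wild type and 69.4, 73.2, 65.1 and 70.4 CPM in *Tra2b-cPEko* mice, and fell by 45.9% (-51.9% to -39.2%, edgeR adjusted p = 0.00231). Between 36757386 and 59101569 reads per mouse fell on genes. Markers of spermatogonia, spermatocytes and the somatic cells of the testis were present in every mouse. All 6 markers of differentiating spermatogonia were nominally lower in *Tra2b-cPEko* mice, of which *Sohlh1* fell by 0.34 on the log2 scale (43.9 to 50.7 CPM in wild type and 35.9 to 38.1 CPM in *Tra2b-cPEko* mice, edgeR adjusted p = 0.0341). The 6 Leydig cell markers had a summed level of 358 to 438 CPM and 392 to 626 CPM, and 5 were nominally higher. The sum of 626 CPM was that of *Tra2b-cPEko* replicate B, beside 392, 404 and 489 CPM in replicates A, C and D. *Lhcgr* was without overlap (20.4 to 27.7 CPM in wild type and 28.4 to 37.6 CPM in *Tra2b-cPEko* mice, edgeR adjusted p = 0.131). Of the 8 pachytene markers that passed the filter, 6 were nominally lower, with a median log2 fold change of -0.61. Among them *Spata16* was without overlap (-2.16, edgeR adjusted p = 0.129). All 5 red blood cell markers were nominally lower, with a median of -0.54. Both lists had their highest sums in wild type replicates A and B, and the medians without these mice were not computed. In *Spata16*, wild type replicates C and D (0.252 and 0.271 CPM) also lay above all *Tra2b-cPEko* mice (0.0601 to 0.191 CPM). All 10 pachytene markers summed to 345, 356, 202 and 231 CPM in wild type mice A to D and 214 to 271 CPM in *Tra2b-cPEko* mice. The red blood cell markers summed to 97.7, 138, 40.3 and 26.3 CPM and 25.1 to 82.4 CPM. Wild type replicates C and D thus lay within or below the *Tra2b-cPEko* range in both sums. The part of cell makeup in the values of the 9 genes was not tested. All values here are CPM scaled by TMM factors unless stated otherwise.

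*Trp53* (GRCm39, chr11:69469669-69482701, plus strand) encodes p53 itself. Its transcript had 80.2, 84.5, 85.0 and 84.8 CPM in wild type mice A to D. In *Tra2b-cPEko* mice A to D it had 91.8, 78.7, 83.7 and 78.2 CPM, so that the highest and the lowest of the 8 values both came from *Tra2b-cPEko* mice. The fitted difference was -0.575%, with a 95% interval of -8.33% to 7.84% (edgeR adjusted p = 0.961, exact permutation p = 0.829, two-sided). In bulk RNA, fewer cells of a type and less RNA per cell cannot be told apart.

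*Trp63* (chr16:25502513-25710852, plus strand) encodes p63, a relative of p53 that builds stratified epithelia and guards genome quality in oocytes. It had the lowest level of the 9 genes per kb of exon and had 2.87, 2.84, 3.30 and 2.13 CPM in wild type mice. *Tra2b-cPEko* mice had 2.77, 3.08, 5.84 and 2.86 CPM. Replicate C alone lay above the wild type range, and the other three lay within it. The difference was 31.1% (-10.0% to 91.1%, log2 fold change 0.39 with an SE of 0.25, edgeR adjusted p = 0.480, exact permutation p = 0.429). Without *Tra2b-cPEko* replicate C the log2 fold change was 0.06 (edgeR adjusted p = 0.928).

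*Tra2b-cPEko* replicate C also stood apart in 3 keratin genes of a list of 5 markers of basal epithelium, in which p63 is a main regulator. *Krt5* had 6.07 CPM (284 reads) in this mouse and at most 0.02 CPM elsewhere. *Krt14* had 2.46 CPM, beside 0 to 0.163 CPM in the other 7 mice, and *Krt15* had 103 reads, beside 0 or 1 read. *Cdh1*, which encodes E-cadherin of epithelia and undifferentiated spermatogonia, had 18.1 CPM beside 4.00 to 5.79 CPM. Summed over the 5 basal epithelium markers, wild type mice had 11 to 11.9 CPM and *Tra2b-cPEko* mice 12.2 to 22.7 CPM, most of it from *Col17a1* outside replicate C. The other markers were not raised in replicate C, where *Col17a1* had 11.9 CPM, the lowest of the *Tra2b-cPEko* mice, and *Dsg3* had 1 read, beside 2 in replicate B. *Perp*, a gene of cell junctions that p53 and p63 both activate, was picked out after its values were seen, as the p53 target with the largest fitted difference. It had 1.05 to 1.88 CPM in wild type mice and 1.64, 1.25, 4.60 and 2.07 CPM in *Tra2b-cPEko* mice, again highest in replicate C. The part that the epithelial transcripts play in the *Trp63* and *Cdkn1a* values of this mouse was not tested.

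**Figure D3:**
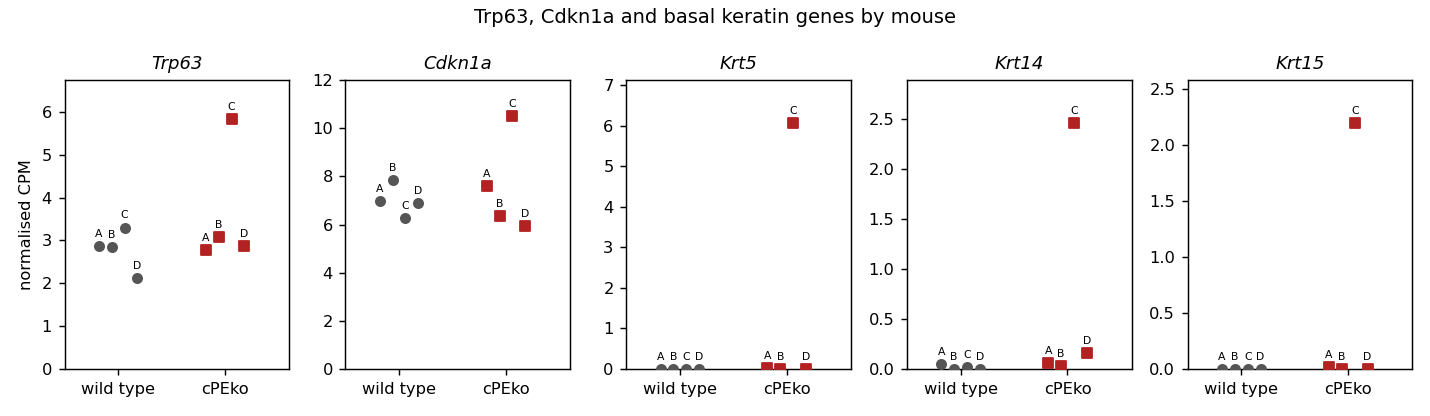
Normalised CPM (vertical axes from 0, a separate scale per gene) of *Trp63*, *Cdkn1a* and the basal keratin genes *Krt5*, *Krt14* and *Krt15* in each of 4 wild type mice (grey circles) and 4 *Tra2b-cPEko* mice (red squares), lettered by replicate. *Tra2b-cPEko* replicate C is highest in all 5 panels, with 6.07 CPM of *Krt5* where the other 7 mice have at most 0.02 CPM.

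*Cdkn1a* (chr17:29309936-29319701, plus strand) encodes p21, the inhibitor of cyclin-dependent kinases that is the most widely used readout of p53 activity. Wild type mice had 6.99, 7.83, 6.27 and 6.88 CPM. *Tra2b-cPEko* mice had 7.58, 6.37, 10.5 and 5.94 CPM, of which only that of replicate C was above the wild type range and that of replicate D was below it. The difference was 9.05% (-14.6% to 39.2%, edgeR adjusted p = 0.751, exact permutation p = 0.743). It turned to a log2 fold change of -0.07 (edgeR adjusted p = 0.864) without replicate C. The count ratio of *Cdkn1a* to *Trp53* was 0.0738 to 0.0926 in wild type and 0.0825, 0.0810, 0.125 and 0.0759 in *Tra2b-cPEko* mice.

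Because *Cdkn1a* is read as a target, the sequence that p53 binds was looked for near its start and near those of the other genes. The p53 response element was searched as 20 bases, with both of its core motifs intact and at most 1 mismatch outside them, within 3000 bases on either side of the outermost annotated start. The element reads alike on both strands. Of 21738 protein-coding genes, 0.727% had such a match, and 0.115% had one without a mismatch. Among the 9 genes, 1 had a match, and among the 27 genes of the p53 target list, 3 did, of which 1 had no mismatch. These 3 sequences are given 5′ to 3′ on the strand of the gene, with the core motifs in capitals.
Cdkn1a: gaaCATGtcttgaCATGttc
Ccng1: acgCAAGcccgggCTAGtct
Zmat3: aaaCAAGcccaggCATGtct

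On GRCm39 the *Cdkn1a* match lies at chr17:29309902-29309921, 34 bases before the outermost start and outside the gene. That of *Ccng1*, which encodes cyclin G1, a feedback partner of Mdm2, lies in an intron at chr11:40645763-40645782 on the minus strand, 366 bases after the start. That of *Zmat3*, an RNA-binding protein induced by p53, lies at chr3:32418480-32418499 on the minus strand, 1664 bases after the start, in a stretch annotated as exon in at least 1 transcript. A match is a stretch of letters and not a measured binding site, and the lack of a match says only that these letters are absent from the window. In the shorter promoter windows that RefSeq gives on GRCm38.p6, 7 of the 9 genes were found, with 12 windows, of which 1 held a match, beside 0.0548% of all windows in that table.

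The other 2 genes with a match did not pass the test. *Ccng1* had 62.8, 62.7, 68.2 and 57.3 CPM in wild type and 55.8, 60.4, 60.9 and 61.3 CPM in *Tra2b-cPEko* mice, a difference of -4.98% (edgeR adjusted p = 0.560). *Zmat3* had 14, 14.5, 17.3 and 15.9 CPM in wild type and 14.6, 15.8, 17.1 and 14.8 CPM in *Tra2b-cPEko* mice, a difference of 0.738% (edgeR adjusted p = 0.967). Both sets of values overlapped, and both genes are named for their sequence match.

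*Bax* (chr7:45111015-45116325, minus strand) had 58.2, 66.6, 58.1 and 59.7 CPM in wild type mice. *Tra2b-cPEko* mice had 58.0, 56.6, 50.9 and 61.4 CPM. Those of replicates A, B and C lay below the wild type range, and that of replicate D lay inside it. The difference was -6.44% (-15.0% to 2.96%, edgeR adjusted p = 0.498, exact permutation p = 0.286).

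*Bbc3* (chr7:16042318-16052130, plus strand), which encodes PUMA, had 5.34, 6.74, 5.26 and 6.64 CPM in wild type and 4.45, 6.51, 6.18 and 7.05 CPM in *Tra2b-cPEko* mice. Replicate A had the lowest and replicate D the highest of the 8 values, both among the *Tra2b-cPEko* mice. The difference was 0.556% (-18.9% to 24.7%, edgeR adjusted p = 0.987, exact permutation p = 1). Its sign turned when any of 5 mice was left out in turn, and its interval is wide. The SD between mice was 13.4% of the mean in wild type and 18.6% in *Tra2b-cPEko* mice.

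*Pmaip1* (chr18:66591604-66598636, plus strand), which encodes NOXA, the BH3-only protein that targets Mcl1, had the smallest exact permutation p of the 9. It had 12.5, 12.6, 11.3 and 11.3 CPM in wild type and 12.8, 13.1, 12.3 and 13.2 CPM in *Tra2b-cPEko* mice. *Tra2b-cPEko* replicates A, B and D lay above all of wild type, and replicate C lay within the wild type range. The difference was 7.79% (-3.05% to 19.8%, edgeR adjusted p = 0.490, exact permutation p = 0.114, where 0.0286 is the smallest p that 70 arrangements allow). Wild type mice A and B, the higher of the wild type values here, also stood above the other 6 mice in several marker lists. They did so in 7 of 12 leptotene and zygotene markers, 6 of 10 pachytene markers and 5 of 5 red blood cell markers. The leptotene and zygotene markers summed to 2780 and 2390 CPM in these mice, beside 2120 to 2320 CPM in the others. The pachytene markers summed to 345 and 356 CPM in these mice, beside 202 to 271 CPM in the others, led by *Piwil1* (43.6 and 46.8 CPM, beside 9.04 to 14.4) and *Ldhc* (28.7 and 25.1 CPM, beside 3.13 to 9.86). *Mybl1*, *Tbpl1*, *Ccna1* and *Pou5f2* did not separate them, and *Ccna1* and *Pou5f2* were lowest of all in wild type replicate A. The red blood cell markers summed to 97.7 and 138 CPM, beside 25.1 to 82.4 CPM. The part of these transcripts in the *Pmaip1* values was not tested. Without both mice, a comparison made after the values were seen, the log2 fold change of *Pmaip1* was 0.19 instead of 0.11. Its unadjusted p was 0.0451 and its adjusted p 0.464 by edgeR's quasi-likelihood test. It was the only unadjusted p under 0.05 for any of the 9 genes under any setting tried. Because these mice held the higher wild type values of *Pmaip1*, leaving them out was bound to raise its difference. The fit therefore cannot serve as a test of that difference.

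Among the pro-survival genes, *Bcl2* (chr1:106465908-106642060, minus strand) had 9.03, 8.09, 10.7 and 9.93 CPM in wild type and 7.86, 10.6, 11.5 and 10.4 CPM in *Tra2b-cPEko* mice. *Tra2b-cPEko* replicate A was the lowest of all 8 and replicate C the highest. The difference was 6.62% (-11.1% to 27.8%, edgeR adjusted p = 0.753, exact permutation p = 0.571).

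*Bcl2l1* (chr2:152622582-152673655, minus strand), whose product BCL-XL is needed for germ cell survival in the embryo, had 92.4, 98.4, 89.2 and 94.3 CPM in wild type mice. It had 95, 91.6, 83.5 and 90.4 CPM in *Tra2b-cPEko* mice, with replicate C below all the others. The difference was -3.68% (-10.6% to 3.74%, edgeR adjusted p = 0.630, exact permutation p = 0.343).

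*Mcl1* (chr3:95566026-95570487, plus strand), whose protein turns over fast, had 184, 174, 182 and 206 CPM in wild type and 186, 184, 178 and 193 CPM in *Tra2b-cPEko* mice. All the *Tra2b-cPEko* values lay inside the wild type range. The difference was -0.797% (-8.37% to 7.41%, edgeR adjusted p = 0.941, exact permutation p = 0.943).

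The balance of *Bax* to its restrainers, which is often taken as a gauge of readiness to die, overlapped between the genotypes. The count ratio of *Bax* to *Bcl2* was 6.53 ± 1.20 (SD, n = 4) in wild type and 5.77 ± 1.23 in *Tra2b-cPEko* mice, with ranges of 5.45 to 8.23 and 4.45 to 7.38. The ratio of *Bax* to *Bcl2l1* was 0.648 ± 0.0214 and 0.629 ± 0.0336, and that of *Bax* to *Mcl1* was 0.326 ± 0.0393 and 0.306 ± 0.0137. None of the 3 ratios was tested.

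The 9 genes had the same order of levels in both genotypes once CPM was divided by exon length. In wild type, *Mcl1* stood first with 53.5 CPM per kb, followed by *Bax* (32.7), *Bcl2l1* (18.2), *Trp53* (11.3) and *Pmaip1* (4.36 CPM per kb). *Bbc3* (1.25), *Cdkn1a* (1.16) and *Bcl2* (1.02 CPM per kb) came next, and *Trp63* last with 0.332 CPM per kb. The values of *Bbc3* and *Cdkn1a*, and those of *Cdkn1a* and *Bcl2*, overlapped between mice in each genotype, so that these neighbours were not separated by their spread. All other neighbours in the order were. The length of a gene is here that of the exons of all its annotated transcripts together, such as 7379 bases for *Trp53* and 1856 for *Bax*. The order between genes depends on this choice, which the spread between mice does not cover, and lengths of single transcripts were not tried. The pattern over the 8 mice most like each gene's own, among 87 other pathway genes and by Pearson's r of log2 CPM, was that of *Aen* for *Bax* (r = 0.876), *Bax* for *Bcl2l1* (0.843), *Timd4* for *Trp63* (0.823) and *Tnfrsf21* for *Cdkn1a* (0.816). *Phlda3* was nearest to *Mcl1* (0.810), *Hipk2* to *Bcl2* (0.795), *Bik* to *Pmaip1* (0.711), *Gadd45a* to *Bbc3* (0.663) and *Plk3* to *Trp53* (0.616). These r are the highest of many and share the genotype and the libraries, and they are given as a description. *Timd4* and *Tnfrsf21* were, like *Trp63* and *Cdkn1a*, highest in *Tra2b-cPEko* replicate C, with 1.05 and 24.4 CPM. The part of this mouse in the r of these pairs was not tested.

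Around the 9 genes, 85 other genes of the pathway were listed, of which 79 passed the filter on low counts. By edgeR's quasi-likelihood test, 0 of the 79 had an adjusted p under 0.05, beside 0.157% of all genes. At an unadjusted p under 0.05, 7 were higher and 6 lower in *Tra2b-cPEko* mice, beside 8.22% and 7.07% of all genes, and 6 of the 79 showed no overlap, beside 8.54% of all genes. DESeq2 called 2 of the 79, *Bcl2l2* and *Sesn1*, beside 2.79% of the 18149 genes to which it gave an adjusted p. Their median log2 fold change was 0.01, beside -0.001 over all genes.

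Of 27 p53 target genes, *Cdkn1a*, *Bax*, *Bbc3* and *Pmaip1* among them, 17 were nominally higher and 10 lower, with a median log2 fold change of 0.01, where 49.7% of all genes were nominally higher. *Sesn1*, a sestrin that p53 induces and that restrains growth signalling, had 94.5, 92.9, 98.3 and 94.2 CPM in wild type and 103, 101, 110 and 107 CPM in *Tra2b-cPEko* mice. Its values did not overlap, its log2 fold change was 0.15 (an interval of 4.13% to 18.2% in percent), and its adjusted p was 0.144 by edgeR's quasi-likelihood test and 0.0386 by DESeq2. *Sesn2*, of the same family, had 118 to 131 CPM in wild type and 127 to 157 CPM in *Tra2b-cPEko* mice (edgeR adjusted p = 0.192). At an unadjusted p under 0.05 by edgeR, 2 targets were higher, both sestrins, and 2 were lower, *Btg2* and *Ddb2*, named here for that reason. *Btg2* had 46.8 to 58.4 and 41.5 to 47.4 CPM, and *Ddb2* had 69.2 to 87.2 and 61.4 to 74.6 CPM (edgeR adjusted p = 0.277 and 0.321). *Mdm2*, the ubiquitin ligase that holds p53 down and is itself a target, had 95.3 to 99.3 CPM and 95.8 to 104 CPM (edgeR adjusted p = 0.945), and is named for that role after its values were seen.

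Of 15 genes of the p53 family and its regulators, 9 were nominally higher and 6 lower, with a median of 0.01. *Chek2*, the kinase that passes the DNA damage signal to p53 and p63, had 16.2, 16.5, 16.2 and 17.1 CPM in wild type and 14, 13.8, 16.1 and 13.2 CPM in *Tra2b-cPEko* mice. The values did not overlap, but replicate C came close, and the adjusted p was 0.216 by edgeR's quasi-likelihood test. *Ppp1r13l*, an inhibitor of p53, had 16.2 to 23.1 CPM in wild type and 16.8 to 19.2 CPM in *Tra2b-cPEko* mice (edgeR adjusted p = 0.470).

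Among the BCL2 family, the pro-survival gene *Bcl2l2* (BCL-W, chr14:55120778-55126551, plus strand), which is required for spermatogenesis in adult mice, had the smallest p of all pathway genes. It had 159, 166, 175 and 167 CPM in wild type and 194, 192, 196 and 191 CPM in *Tra2b-cPEko* mice. All 4 *Tra2b-cPEko* values lay above all 4 wild type values, by 15.8% (9.03% to 23.1%, log2 fold change 0.21 with an SE of 0.04). Its adjusted p was 0.0617 by edgeR's quasi-likelihood test and 0.000223 by DESeq2, and the exact permutation p was 0.0286, the smallest possible. It had an adjusted p under 0.05 under 4 of 17 other settings, among them the fit without wild type replicate C (edgeR adjusted p = 0.0382). *Bcl2l2* shares its strand and near-identical sequence with the annotated transcript *Gm20521*, so that the counts of this pair could be split between them.

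The 4 pro-survival genes that passed the filter had a median log2 fold change of 0.04, with *Bcl2* and *Bcl2l2* nominally higher and *Bcl2l1* and *Mcl1* nominally lower. Of the 3 effectors, all were nominally lower, with a median of -0.10, and the smallest adjusted p was that of *Bok* (0.311, edgeR), which had 48.6 to 58.2 CPM in wild type and 40.0 to 51.6 CPM in *Tra2b-cPEko* mice. Of 8 BH3-only genes, 5 were nominally higher, with a median of 0.06. *Bmf*, which senses loss of cell anchorage, had 33.9 to 40.3 CPM and 39.6 to 46.5 CPM (edgeR adjusted p = 0.254), and *Bcl2l11*, which encodes BIM, had 40.5 to 46.5 CPM and 45.4 to 51.9 CPM (edgeR adjusted p = 0.329).

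Of 11 genes of the apoptosome and the caspases, 3 were nominally higher and 8 lower, with a median of -0.08. *Casp2*, an initiator caspase, had 81.3 to 89.4 CPM in wild type and 74.0 to 81.0 CPM in *Tra2b-cPEko* mice, without overlap (edgeR adjusted p = 0.244), and *Htra2*, a mitochondrial protease, had 39 to 49.3 and 37.4 to 40.5 CPM (edgeR adjusted p = 0.343). Of 5 inhibitors of apoptosis, 4 were nominally higher, with a median of 0.03. *Birc3* had 13.3 to 16.1 and 14.5 to 17.4 CPM, and *Birc6* had 335 to 392 and 380 to 406 CPM (edgeR adjusted p = 0.411 and 0.439).

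Of 11 death receptor and necroptosis genes that passed the filter, 7 were nominally higher, with a median of 0.10. *Ripk1*, the kinase at the fork of survival and necroptosis, had 51.6 to 59.3 CPM in wild type and 59.7 to 64.9 CPM in *Tra2b-cPEko* mice, without overlap (edgeR adjusted p = 0.245), and *Tnfrsf1a*, the TNF receptor, had 105 to 119 and 116 to 128 CPM (edgeR adjusted p = 0.333). The ligand genes *Fasl* and *Tnf* did not pass the filter.

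For the uptake of dying cells, which was not itself measured, the RNA of 11 genes of engulfment receptors and their bridges was followed. Of these, 7 were nominally higher, with a median of 0.08. *Elmo1*, which drives uptake of apoptotic germ cells by Sertoli cells, had 50.9, 48.9, 57.0 and 49.1 CPM in wild type and 65.4, 54.4, 70.8 and 58.6 CPM in *Tra2b-cPEko* mice. The values overlapped through wild type replicate C, and the difference was 21.2% (7.34% to 36.9%, edgeR adjusted p = 0.159). *Mertk*, a receptor for dying cells on Sertoli cells and macrophages, had 51.3 to 58.2 CPM and 56.5 to 66.2 CPM (edgeR adjusted p = 0.201). Beside these, all 11 macrophage markers were nominally higher in *Tra2b-cPEko* mice, with a median of 0.24 and a summed level of 150 to 187 CPM in wild type and 186 to 222 CPM in *Tra2b-cPEko* mice. *Csf1r*, the defining receptor of macrophages, had 21.8 to 27.9 and 27.6 to 33.3 CPM (edgeR adjusted p = 0.136). The 10 Sertoli cell markers had a median of -0.04 and a summed level of 5390 to 5920 and 5490 to 6250 CPM. The part of macrophage content in the *Elmo1* and *Mertk* values was not tested.

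**Figure D4:**
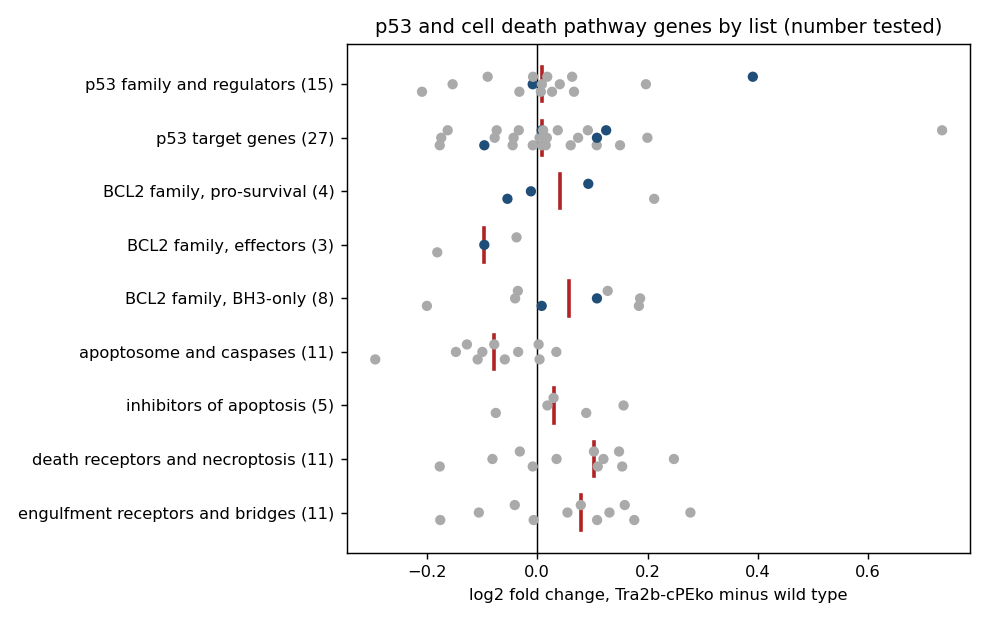
Log2 fold change (*Tra2b-cPEko* minus wild type, horizontal axis) of the genes of 9 p53 and cell death lists that passed the filter on low counts, with the 9 chosen genes in blue, other genes in grey and the median of each list as a red bar. The medians lie between -0.10 and 0.10, and the point furthest to the right is *Perp*, at 0.73.

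Several of the genes share reads or ground with other annotated genes. *Trp53* has a processed pseudogene and 4 other near-identical annotated transcripts, and *Cdkn1a*, *Bax* and *Bcl2l1* have 1 each. Those of *Bax* (*Gm45808*, same strand) and *Bcl2l1* (*Gm74855*, opposite strand) overlap the gene itself and are not separate copies. *Wrap53* and *Dino* lie on the opposite strand over *Trp53* and *Cdkn1a*. Whether the counting used the strand is not given in the sources used here, and reads of these pairs could be mixed. *Trp63* and *Bcl2* overlap genes known only by identifiers on both strands. *Bbc3*, *Pmaip1* and *Mcl1* had neither copies nor overlapping genes.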

How the data were processed

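The authors deposited raw read counts, 1 table per mouse, of 40840 genes by symbol with 5 summary lines, which were left out of library sizes and tests (reads on genes were 66.4% to 69.0% of the tables' reads). The libraries came from a stranded mRNA kit. The methods describe alignment with HISAT2 to GRCm39 with NCBI annotation and quantification with Salmon. The submitters' processing notes name HISAT2 2.2.1, SAMtools 1.7.1 and HTSeq 2.0.2, and the summary lines have the form that HTSeq writes. The strand setting is not given in the sources used here, and counts do not show splicing.

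The tests used edgeR 4.0.16 in R 4.3.3. Low genes were removed by filterByExpr (count of 10, total of 15), libraries were scaled by TMM, and the robust quasi-likelihood F-test compared the genotypes over all 8 mice without covariates, with Benjamini-Hochberg adjustment over 19104 genes. A gene with an adjusted p under 0.05 is called. Intervals are 95% intervals of that fit. Named genes were in addition tested by exact permutation of log2 CPM (prior count 2), two-sided. Alternatives were DESeq2 1.42.0, limma-voom (limma 3.58.1), RLE and upper-quartile factors, other filters, no robust estimation, a threshold of 0.1, the replicate letter as a block, fits without each mouse and, added after seeing the data, a fit without wild type replicates A and B. The methods were tested on simulated counts. P-values measure the spread between the mice sequenced. Chi-square values per degree of freedom between mice of a genotype were 6.24 to 19.1, so that no library was a copy of another of its genotype.

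The 9 genes and the lists were chosen with earlier results of these data known. The genes named from the lists are those called and the 2 with the smallest unadjusted p of each list; other names are given with their reason. Positions and exon lengths come from GENCODE vM39 on GRCm39, where the length of a gene joins the exons of all its transcripts. Copies were searched with BLAST+ 2.17.0 at 95% identity over 50% of the shorter transcript of a pair. Figures were drawn with matplotlib 3.10.9 under Python 3.11.15.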

Additional observations from a re-analysis of the deposited data

Results flagged for a closer look

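The lowest and highest value in each group of 4 mice were set against the rest by Dixon's ratio, the gap to the nearest value over the whole range, with a critical value of 0.829. Of 58 groups examined, 4 stood out, where chance at 1 in 20 gives 2.9. *Trp53* in wild type replicate A had 80.2 CPM, below the next value of 84.5 CPM (ratio 0.903), though the whole wild type range was narrow. *Trp63* in *Tra2b-cPEko* replicate C had 5.84 CPM, above the next value of 3.08 CPM (ratio 0.898), in the mouse with the basal keratin transcripts. *Birc3* in wild type replicate C had 16.1 CPM, above the next value of 13.7 CPM (ratio 0.867). *Ccng1* in *Tra2b-cPEko* replicate A had 55.8 CPM, below the next value of 60.4 CPM (ratio 0.841).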

How the results depend on the processing

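None of the 9 genes was called under the main design or any of the other 18 settings, and their adjusted p stayed at or above 0.343 throughout. The number of all genes called moved from 30 to 123 without a filter on low counts, 14 with a mean count of at least 50, 58 with upper-quartile factors, 507 with DESeq2, 11 with limma-voom, 12 without robust estimation, 156 at a threshold of 0.1, 67 with the replicate letter as a block and 1 without wild type replicates A and B. Leaving out each mouse in turn gave 3 to 84. Of the 153 fits of single genes of the 9, 15 turned the sign of a difference that was not called. *Trp53* turned to 0.0105 (log2) with upper-quartile factors, *Mcl1* to 0.00714 with upper-quartile factors, *Bbc3* to -0.000739 without a filter and to -0.0219 with limma-voom, and *Bcl2* to -0.0311 without wild type replicates A and B. When mice were left out in turn, *Trp53* ranged from -0.0621 to 0.0188, *Cdkn1a* from -0.074 to 0.224, *Bbc3* from -0.0743 to 0.131 and *Mcl1* from -0.0422 to 0.0371. *Bcl2l2*, the 1 pro-survival gene called anywhere, was called without a filter, with upper-quartile factors, with DESeq2, without wild type replicate C and at a threshold of 0.1, and DESeq2 called 1 p53 target gene, *Sesn1*. *Tra2b* had an adjusted p under 0.05 in 6 of 17 settings, and over all 17 it ranged from 0.000195 with DESeq2 to 0.184 without wild type replicates A and B. *Zmat3* turned to -0.0929 and *Ppp1r13l* to 0.00184 without wild type replicates A and B, and *Zmat3* ranged from -0.0396 to 0.0681 when mice were left out in turn. Whether the replicate letters pair the mice is not stated in the labels. Deviations of mice with the same letter correlated by 0.03, -0.14, -0.04 and 0.12 for A to D. The highest correlations with another letter were 0.05, 0.15, 0.15 and 0.03. Such weak correlations cannot settle the question, and the block called 0 of the 9 genes. Upper-quartile factors moved the median of all genes to 0.02. The causes were not tested. A change confined to a small share of the cells could go undetected in whole testis RNA. The intervals of *Cdkn1a* (218 to 491 reads) and *Trp63* (105 to 273 reads) are wide. The SD between *Tra2b-cPEko* mice was 27% of the mean for *Cdkn1a* and 40.5% for *Trp63*.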
